A study of Solanum pimpinellifolium and Solanum chilense with 12 samples.

Results

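Pectin-modifying enzymes reshape homogalacturonan, the chain of galacturonic acid residues that forms much of the soft plant cell wall. Pectin methylesterases (PME) strip methyl groups from the chain, and the stripped chain can then be stiffened by calcium or cut, either by hydrolysis (polygalacturonase, PG) or by elimination (pectate lyase, PL). In the style these enzymes matter on both sides of the pollination, because pollen tubes grow through the pectin-rich matrix of the transmitting tract, and pollen itself makes large amounts of pectin-modifying transcripts of its own. The genes described here were taken by identifier from a list of such enzymes: 10 of the 34718 genes in the deposited expression table, comprising 5 PG, 1 PL and 4 PME genes. All 10 were listed with values in the table. No sequences are printed for them, since none were among the material used here.

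The transcripts were measured by RNA-seq of whole styles, stigmas included, from 2 wild tomato accessions. The self-compatible (SC) species was Solanum pimpinellifolium LA1585 and the self-incompatible (SI) species was Solanum chilense LA0130. Styles were unpollinated (UP) or self-pollinated (P) and were collected at 24 h, which gave 4 groups (SCUP, SCP, SIUP and SIP) of 3 biological replicates each. Each species was 1 accession, so species and accession cannot be told apart, and the number of plants behind each library and any emasculation of the flowers are stated in none of the sources used. Expression is given as RPKM, the reads on a gene per kilobase of gene and scaled to the reads on all genes of the library. This scale allows for gene length and depth. Reads of both species were aligned to the tomato reference genome, and a loss of reads that differs between genes or species is not corrected. Whether this affects the SI level of any gene was not tested. The libraries held 10174283 to 14499207 reads on genes. For every 100 read pairs kept after trimming, SC libraries had 85.2 to 88.1 reads on genes, and SI libraries 72.6 to 74.7, so levels of the 2 species stand side by side below and the tests compare P with UP within a species, or the responses of the 2 species with each other. In whole styles, fewer cells of a type and less RNA per cell cannot be told apart.

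Reads of a pollen transcript were present in the unpollinated libraries too. LAT52 (Solyc10g007270), a transcript of tomato pollen, stood at 1275, 3274 and 1797 RPKM in the 3 SCUP libraries and at 1860, 2061 and 2213 RPKM in the SCP libraries. It stood at 488, 160 and 161 RPKM in the SIUP libraries and at 591, 1086 and 606 RPKM in the SIP libraries. The SC groups therefore overlapped in this marker, whereas every SIP library lay above every SIUP library, and SIUP replicate 1 lay closer to SIP replicate 1 than to the other SIUP libraries. The response was 0.06 on the log2 scale in SC (SE 0.37, adjusted p = 0.942) and 1.65 in SI (SE 0.47, adjusted p = 0.0941; 2.19 and adjusted p = 0.00999 without SIUP replicate 1). No marker list of stylar tissue could be drawn up, because no table used here pairs the identifiers with such descriptions. LAT52 was the only pollen marker, and how much pollen the unpollinated styles carried was not tested.

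The clearest change was in 2 neighbouring PG genes of chromosome 12. Solyc12g096740 and Solyc12g096750 rose 8.30-fold and 8.97-fold in mean RPKM after self-pollination of SC styles, and both passed the test. Of the other 3 members tested in SC (1 PL and 2 PME genes), none passed. In SI styles none of the 8 members tested passed, and the most abundant of the 5 PG members was a different one, Solyc10g080210 of chromosome 10, which was nearly silent in SC. The response of Solyc12g096740 was the 1 among 10 members whose difference between the species passed the test.

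Solyc12g096740 and Solyc12g096750 carry adjacent numbers and were counted over the same length, 1164 bases. The study's own annotation assigns them polygalacturonase activity, the hydrolysis of the de-esterified pectin chain. Expression of Solyc12g096750 was 20.9, 69.3 and 28.6 RPKM in SCUP and 380, 389 and 299 RPKM in SCP. Each SCP library held over 4 times the level of the highest SCUP library, SCUP replicate 2, and the groups did not overlap. The change was 3.33 on the log2 scale of RPKM plus 0.5 (SE 0.42, n = 3 per group, adjusted p = 0.00997), where adjusted p is the Benjamini-Hochberg value of limma over all genes tested and the threshold was 0.05. Expression of Solyc12g096740 was 8.07, 27.4 and 15.5 RPKM in SCUP and 104, 195 and 124 RPKM in SCP, again with every pollinated library above every unpollinated one. The change was 3.13 (SE 0.44, adjusted p = 0.0130). Leaving out SCUP replicate 3 ended the call of Solyc12g096740 (3.14, adjusted p = 0.0590) but not that of Solyc12g096750 (adjusted p = 0.0490), and an unequal-variance test of RPKM ended both calls (adjusted p of 0.285 and 0.193).

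In every SI library both genes stood below their lowest SC library. Solyc12g096740 was at 1.40, 1.39 and 0.576 RPKM in SIUP and at 0.760, 0.758 and 1.0 RPKM in SIP, from 8 to 19 reads a library. The groups overlapped and the change was −0.23 (SE 0.31, adjusted p = 0.655). Solyc12g096750 was at 0.885, 0.804 and 2.81 RPKM in SIUP and at 7.01, 2.20 and 10.6 RPKM in SIP. In SIP, replicates 1 and 3 lay above all SIUP libraries, and SIP replicate 2 lay below SIUP replicate 3. The change was 1.74 (SE 0.59, adjusted p = 0.129) and did not pass the test. The difference between the responses, SI minus SC, was −3.36 for Solyc12g096740 (SE 0.56, adjusted p = 0.0223) and −1.59 for Solyc12g096750 (SE 0.79, adjusted p = 0.434), so that only the first passed. That call of Solyc12g096740 was sensitive to single libraries, though the difference stayed between −3.78 and −2.93 whichever library was left out. Without SCUP replicate 3, SCP replicate 2, SIUP replicate 2 or any of the 3 SIP replicates, adjusted p lay between 0.0505 and 0.0686. In those fits 38 to 95 genes were called in all, against 210 with all libraries. Over 22 alternatives the adjusted p of Solyc12g096740 lay between 0.0110 and 0.593 and passed in 14. Since neither gene's sequence was used here, reads that match both copies could have been split between them or left out, and the values of each are uncertain to that extent. The ratio of Solyc12g096740 to Solyc12g096750 stayed between 0.275 and 0.540 in the 6 SC libraries. In the 6 SI libraries, where Solyc12g096740 had 8 to 19 reads, it ran from 0.0949 to 1.73.

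**Figure D1:**
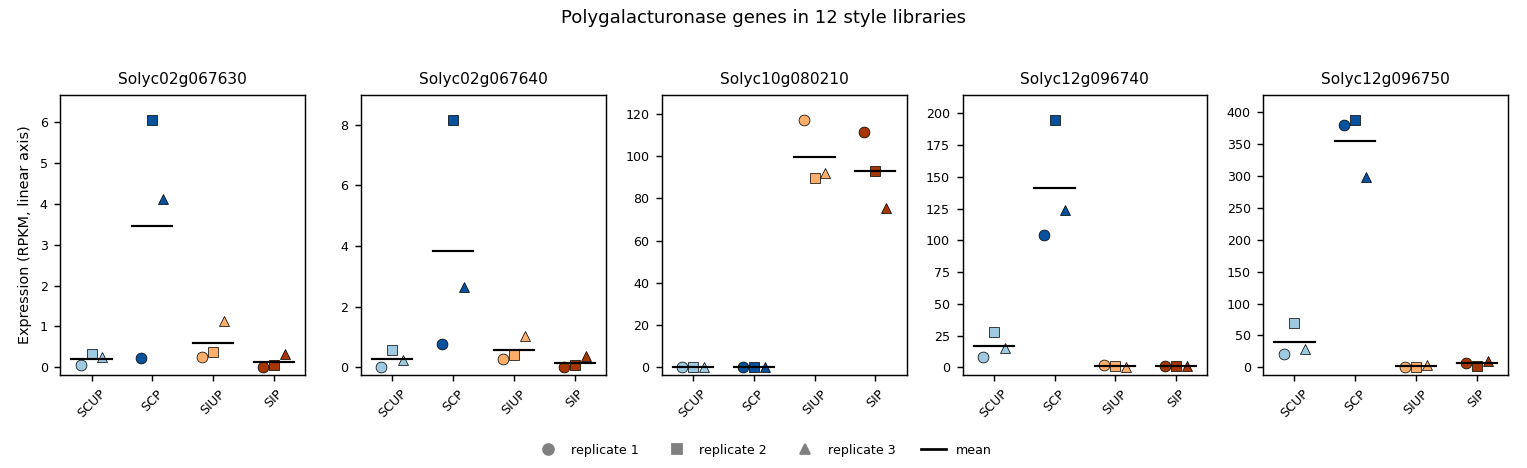
Expression of the 5 polygalacturonase genes (vertical axis, RPKM on a linear axis that differs by panel) in each library of the 4 groups (horizontal axis). Symbols mark replicates and bars the group mean. For Solyc12g096740 and Solyc12g096750 the 3 SCP libraries lie above all others, and Solyc10g080210 is high in all 6 SI libraries.

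Solyc10g080210 was the most abundant of the PG members in SI styles and was close to absent from SC styles. It was at 117, 89.5 and 91.8 RPKM in SIUP and at 111, 92.8 and 75.4 RPKM in SIP. In SC it gave 1 read in all 3 SCUP libraries together and 4 reads in the SCP libraries, at most 0.113 RPKM in any library, against 1155 to 1876 reads in each SI library. Over all libraries, 8980 reads in SI against 5 in SC gave a depth-corrected ratio of 2157 (95% exact interval 924 to 6646), an interval that covers counting error only. Pollination left the SI level within the spread of the replicates (−0.10, SE 0.18, adjusted p = 0.737), and the sign turned without SIUP replicate 1 or SIP replicate 3 (0.02 and 0.04).

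The make-up of the summed transcripts of the 5 PG members therefore differed between the species. Solyc12g096750 held 64.2 to 78.3% of the summed RPKM of the 5 PG genes in SC, and Solyc10g080210 held 86.0 to 97.7% in SI. The summed level was 57.1 ± 36.0 RPKM in SCUP (SD, n = 3) and 504 ± 85.7 RPKM in SCP, 8.83 times as high. In SI it was 103 ± 14.7 RPKM before and 101 ± 16.3 RPKM after pollination. The sums are given as a description, with no test and no correction for loss of reads in mapping.

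**Figure D2:**
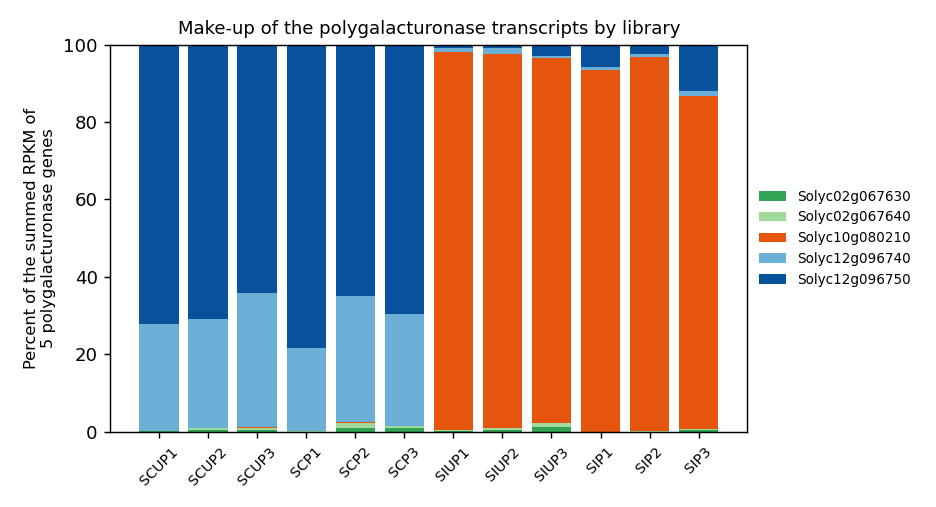
Share of each polygalacturonase gene in the summed RPKM of the 5 genes (vertical axis, percent) in each of the 12 libraries (horizontal axis). Solyc12g096750 fills 64.2 to 78.3% of the SC bars and Solyc10g080210 fills 86.0 to 97.7% of the SI bars, in unpollinated and pollinated styles alike.

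The remaining PG genes, Solyc02g067630 and Solyc02g067640, form a pair on chromosome 2, where the list places pistil and abscission forms of the enzyme. Both fell below the filter for low expression (a level of 1 RPKM or more in 3 or more of the libraries in the fit) in each species, so neither entered the tests within a species. Solyc02g067630 was at 0.0516, 0.322 and 0.248 RPKM in SCUP and at 0.219, 6.06 and 4.12 RPKM in SCP. The SCP libraries split, with 109 and 79 reads in replicates 2 and 3 against 4 reads in replicate 1, which lay inside the SCUP range. Solyc02g067640 was at 0, 0.554 and 0.227 RPKM in SCUP and at 0.753, 8.16 and 2.63 RPKM in SCP, from 12, 128 and 44 reads in the latter. Here every SCP library lay above every SCUP library, with SCP replicate 1 again lowest. In a fit without the filter the SC changes were 2.0 (SE 0.79, adjusted p = 0.198) and 2.16 (SE 0.68, adjusted p = 0.134). With the spread shared over all 12 libraries Solyc02g067640 passed (adjusted p = 0.0287; background 8.11% of genes called higher in that fit) and Solyc02g067630 did not (adjusted p = 0.0603).

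In SI styles the pair pointed the other way at very low levels. Solyc02g067630 was at 0.247, 0.367 and 1.14 RPKM in SIUP and at 0, 0.0635 and 0.322 RPKM in SIP. Solyc02g067640 was at 0.283, 0.421 and 1.04 RPKM in SIUP and at 0, 0.0728 and 0.370 RPKM in SIP. The groups overlapped for both genes, and these levels rest on 0 to 19 reads a library. Without the filter the SI changes were −0.73 (SE 0.34, adjusted p = 0.265) and −0.72 (SE 0.31, adjusted p = 0.247). The differences of the responses were −2.74 (SE 0.95, adjusted p = 0.249) and −2.87 (SE 0.83, adjusted p = 0.159). Without SCP replicate 1 both passed, at −3.72 (adjusted p = 0.0119) and −3.56 (adjusted p = 0.0282), where 1.54% of all genes were called lower and 0.398% higher. The 2 genes kept a ratio of 0.872 to 1.11 to each other in the SI libraries where both had reads, and of 0.291 to 1.57 in the SC ones.

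The PL gene Solyc03g111690, whose class cuts de-esterified pectin by elimination, showed no change that exceeded the replicate spread. It was at 13.3, 2.37 and 6.91 RPKM in SCUP and at 7.29, 3.75 and 2.97 RPKM in SCP. It was at 5.32, 3.56 and 2.99 RPKM in SIUP and at 5.37, 3.39 and 10.5 RPKM in SIP. All 4 groups overlapped, and within each group the highest library held 1.5 times the lowest or more. The changes were −0.45 in SC (SE 0.59, adjusted p = 0.672) and 0.54 in SI (SE 0.39, adjusted p = 0.417), with a difference of 0.99 (SE 0.78, adjusted p = 0.665). The SC value turned to 0.08 without SCUP replicate 1.

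Among the 4 PME members, whose class removes the methyl groups of pectin, Solyc03g123630 had the highest mean in each of the 4 groups. It was at 46.0, 25.6 and 51.1 RPKM in SCUP and at 15.9, 26.6 and 29.9 RPKM in SCP. SCUP replicate 2 lay within the SCP range, and the change was −0.74 (SE 0.34, adjusted p = 0.207). In SI styles it was at 34.0, 38.3 and 42.9 RPKM before and at 40.9, 34.0 and 40.0 RPKM after pollination. The SI groups overlapped almost fully, at a change of −0.002 (SE 0.13, adjusted p = 0.995), whose sign turned under another scaling. The difference of the responses was 0.74 (SE 0.39, adjusted p = 0.461).

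The other 3 PME genes, Solyc07g064170, Solyc07g064180 and Solyc07g064190, carry successive numbers on chromosome 7. Levels of Solyc07g064170 and Solyc07g064190 were mainly a feature of SI styles, whereas the SCUP range of Solyc07g064180 overlapped those of SIUP and SIP. Solyc07g064170 gave 3 reads in SCUP and 0 reads in SCP, where 3 reads in a library would stand at most at 0.102 RPKM. In SI it was at 2.30, 9.79 and 6.44 RPKM in SIUP and at 1.60, 2.21 and 2.88 RPKM in SIP. Over all libraries 665 reads in SI against 3 in SC gave a depth-corrected ratio of 266 (95% exact interval 90.7 to 1294). Solyc07g064190 gave 14, 0 and 2 reads in SCUP and 0, 1 and 0 reads in SCP. In SI it was at 2.37, 12.4 and 8.32 RPKM in SIUP and at 1.2, 3.08 and 3.68 RPKM in SIP. Its 589 reads in SI against 17 in SC gave a ratio of 41.6 (95% exact interval 25.8 to 71.9), with 14 of the 17 in SCUP replicate 1. Solyc07g064180 was present in both species, at 5.59, 3.52 and 3.82 RPKM in SCUP and at 1.28, 2.42 and 2.76 RPKM in SCP. Every SCP library lay below every SCUP library, yet the change of −0.88 did not pass the test (SE 0.30, adjusted p = 0.122). In SI it was at 3.43, 21.5 and 15.0 RPKM in SIUP and at 2.89, 3.48 and 5.31 RPKM in SIP.

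All 3 genes shared 1 pattern in SI: SIUP replicates 2 and 3 were high, and SIUP replicate 1 lay within the SIP range. The SI changes were −1.13 for Solyc07g064170 (SE 0.47, adjusted p = 0.185), −1.36 for Solyc07g064180 (SE 0.61, adjusted p = 0.206) and −1.23 for Solyc07g064190 (SE 0.60, adjusted p = 0.235), and none passed. Without SIUP replicate 1, the unpollinated library with the high LAT52 level, all 3 passed. They then stood at −1.66 (adjusted p = 0.0218), −2.11 (adjusted p = 0.0112) and −1.86 (adjusted p = 0.0387), while 5.97% of all genes were called lower and 6.77% higher. What sets SIUP replicate 1 apart was not tested. The ratios between the 3 genes stayed within narrow bounds in SI, at 0.429 to 0.671 for Solyc07g064170 over Solyc07g064180 and 1.13 to 2.40 for Solyc07g064180 over Solyc07g064190. In SC the latter ratio was 9.09 or more wherever it could be formed, so that Solyc07g064180 was the 1 member of the cluster with a sizeable level there.

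**Figure D3:**
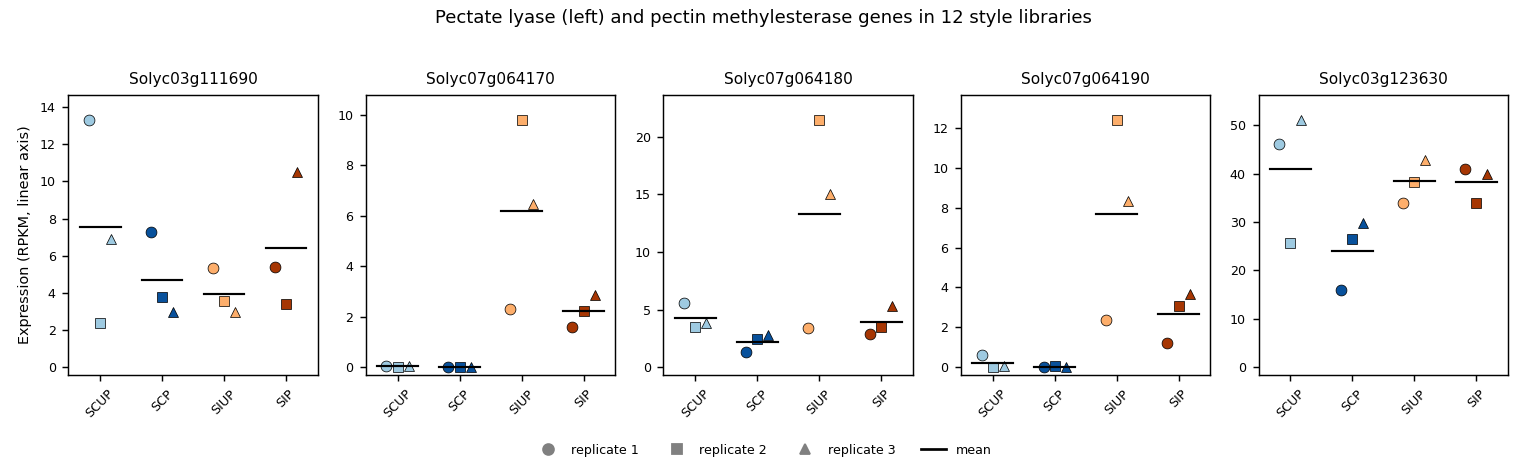
Expression of the pectate lyase gene (left panel) and the 4 pectin methylesterase genes (vertical axis, RPKM on a linear axis that differs by panel) in each library of the 4 groups (horizontal axis), with symbols for replicates and bars for the mean. The 3 genes of chromosome 7 are highest in SIUP replicates 2 and 3, between 6.44 and 21.5 RPKM.

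Summed over the 4 PME genes, expression was 45.5 ± 14.2 RPKM in SCUP and 26.3 ± 8.05 RPKM in SCP (SD, n = 3). In SI it was 65.6 ± 20.8 RPKM before and 47.1 ± 4.54 RPKM after pollination. Solyc03g123630 alone held 87.9 to 92.9% of the sum in the SC libraries, whereas its share went as low as 46.7% in SIUP replicate 2, where the chromosome 7 cluster held the rest.

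Counted together, 2 of the 5 members tested in SC were called, both higher, against a background of 4.66% of 18913 genes called higher and 2.23% called lower. Unadjusted p was under 0.05 for 3 of the 5, and for 27.7% of all genes tested. The members were chosen with earlier results of these data known, so these counts are no evidence of enrichment. The 2 called genes are neighbours of equal length whose reads could have been shared, so they may not be independent of each other. In SI 0 of the 8 members tested were called by limma, against a background of 2.50% of 18334 genes called higher and 1.15% lower. Unadjusted p was under 0.05 for 2 of these, Solyc12g096750 and Solyc07g064170, a share near that of all genes tested (26.6%). Voom on the recovered reads called 0 of them and 739 genes in all, and the unequal-variance test called 0 of them and 3 genes in all, so that its count says little about the members. For the difference of the responses 1 of 10 members tested was called, lower in SI, against 0.784% of 20277 genes called lower and 0.252% called higher. The median change of the members tested was −0.45 in SC (5 members), −0.17 in SI (8 members) and −0.93 for the difference (10 members). Over all genes tested the medians were −0.12, −0.11 and 0.05. The medians of the members are over different sets, so they cannot be set against each other. In SC the groups did not overlap for 4 members, with P higher for Solyc02g067640, Solyc12g096740 and Solyc12g096750 and lower for Solyc07g064180, where 13.2% of all genes tested lay higher without overlap and 23.1% lower. In SI the groups overlapped for all 10 members, where 11.2% of all genes lay higher and 20.8% lower without overlap.

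**Figure D4:**
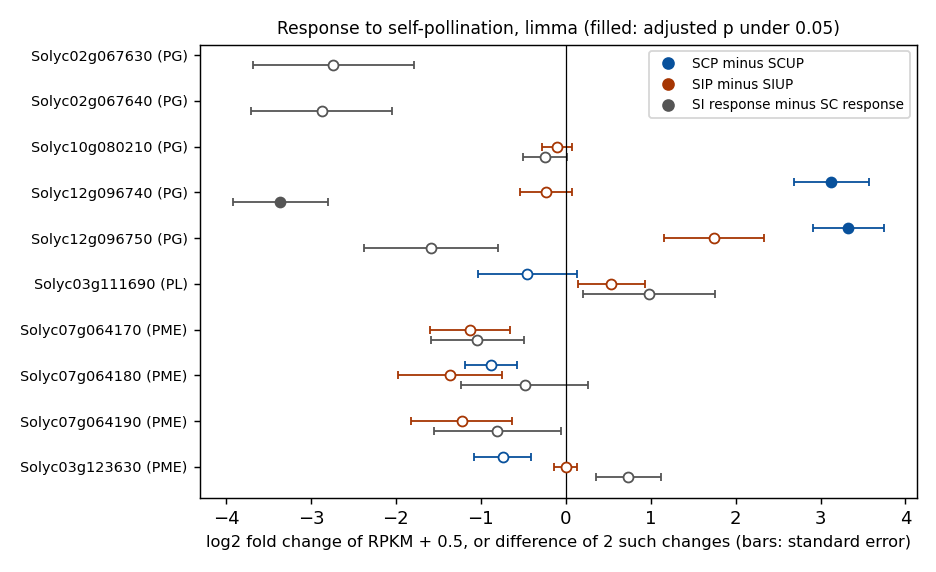
Response to self-pollination of each member (vertical axis) as log2 fold change of RPKM + 0.5 with its standard error (horizontal axis), for SC, for SI and for the difference of both. Filled points passed the test, and members below the filter have no point. The filled points are the SC changes of 3.13 and 3.33 for the chromosome 12 genes and the difference of −3.36 for Solyc12g096740.

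Ordered by their group means, the members fell into 3 kinds of pattern. Solyc12g096740 and Solyc12g096750 stood highest in SCP, then in SCUP, with the SI groups lowest, and the ranges of SCP and SCUP and those of SCUP and the next group were apart. Solyc10g080210, Solyc07g064170 and Solyc07g064190 stood highest in SIUP, then SIP, with overlapping ranges, and both SC groups lay apart below them. For the other 5 members neighbouring groups in the order overlapped, except that the SIP range lay above the SCP range for Solyc07g064180 and Solyc03g123630.

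Other genes with pectin-related activities were taken from the study's own gene ontology annotation of its changed genes, and members were left out. That list holds 11 genes (2 PL, 1 PG and 8 pectinesterases, the enzyme name that covers PME), and because it was drawn from genes the study had called in these libraries it is no independent evidence of direction. In SC 10 were tested and 2 rose, both pectinesterases. Solyc09g075330 was at 0.240, 0.50 and 0.462 RPKM in SCUP and at 18.9, 16.1 and 10.1 RPKM in SCP. The groups lay far apart, at a change of 4.07 (SE 0.28, adjusted p = 0.00379), larger than that of any member. In SI it had 0 to 3 reads a library, and the difference of the responses was −3.55 (SE 0.38, adjusted p = 0.00494). The unequal-variance test ended both calls (adjusted p of 0.276 and 0.573), and voom ended that of the difference (adjusted p = 0.138). The gene passed the filter through its SCP libraries alone and was listed because the study had called it in SC, so its rise was largely set by that choice. Solyc11g005750 rose from 1.53, 1.55 and 1.35 RPKM in SCUP to 3.44, 3.17 and 3.11 RPKM in SCP (0.92, SE 0.20, adjusted p = 0.0400). This call held in 7 of 16 alternatives and was lost whichever SC library was left out, at adjusted p of 0.0604 to 0.177, and with the replicate number as a block (adjusted p = 0.0873). The median change over the list was 0.13 in SC. In SI 8 genes were tested and 0 passed, although all 8 changes were positive, between 1.56 and 1.98 with a median of 1.75 and adjusted p of 0.0516 to 0.0888.

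Those 8 genes kept a nearly constant ratio to LAT52 over the 6 libraries of a species, UP and P pooled, which the members did not. Their RPKM varied 5.83-fold to 8.64-fold over the 6 SI libraries, but their ratio to LAT52 varied only 1.24-fold to 1.54-fold. That bound was met by 1.16% of the 18333 genes above the filter besides LAT52, the 8 genes included. In SC the RPKM of the 8 genes varied 2.13-fold to 2.68-fold and the ratio 1.06-fold to 1.33-fold, a bound met by 2.68% of 18912 genes, counted alike. The 8 genes came from the study's list of genes changed in SI, so all genes are not a like background for them. The pectate lyase among them with the highest level, Solyc03g058910, was at 1869 to 4708 RPKM in SCUP and 2953 to 3251 RPKM in SCP, against at most 13.3 RPKM for the member Solyc03g111690. For the members with reads in every library of a species, the ratio to LAT52 varied 4.61-fold to 72.8-fold in SC (6 members) and 6.69-fold to 41.9-fold in SI (8 members). In SC, LAT52 overlapped between SCUP and SCP while Solyc12g096740 and Solyc12g096750 did not. The ratio of these 2 genes to LAT52 varied 14.9-fold and 12.8-fold over SCUP and SCP pooled, a spread that includes their rise after pollination. It therefore does not tell how closely the 2 genes followed LAT52 within SCUP or within SCP. Within SCUP, both genes and LAT52 were highest in replicate 2. Within SCP, both genes were highest in replicate 2 and LAT52 in replicate 3. LAT52 was the only pollen marker used, and these ratios are no test of a pollen source. The part of pollen RNA in the members' levels was not tested.

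**Figure D5:**
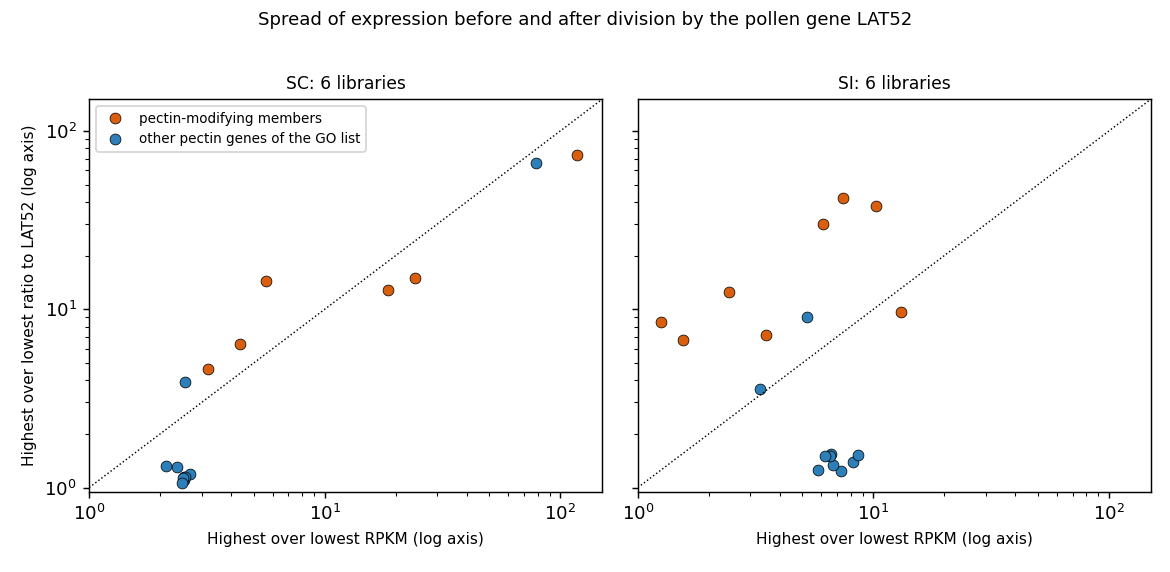
Spread of each gene over the 6 libraries of a species, as highest over lowest RPKM (horizontal log axis) and as highest over lowest ratio to LAT52 (vertical log axis). Genes with 0 reads in any library of the species are left out. On the dotted diagonal both spreads are equal. The 8 genes of the ontology list that were tested in SI lie at 1.06 to 1.54 on the vertical axis, the other genes of that list lie above them, and the members lie at 4.61 or higher.

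Of the genes next to the 3 clusters in number order, 1 was called in any comparison. Next to the chromosome 7 PME genes, Solyc07g064160 fell in SI from 171, 235 and 249 RPKM to 38.8, 75.5 and 50.5 RPKM (−2.02, SE 0.26, adjusted p = 0.0142). The SI groups did not overlap, and the call held in 11 of 17 alternatives (adjusted p of 0.00921 to 0.249), being lost without SIUP replicate 2 or 3 or SIP replicate 1 or 3. In SC it was at 46.8, 49.5 and 83.5 RPKM in SCUP and at 0.960, 25.6 and 35.7 RPKM in SCP, with SCP replicate 1 far below the others and no call (−2.39, SE 1.14, adjusted p = 0.223). On the other side of that cluster, Solyc07g064200 was at 14.24 to 46.05 RPKM in SIUP and 45.64 to 89.99 RPKM in SIP. Its SI change of 1.53 was opposite in sign to those of the cluster and was not called (SE 0.47, adjusted p = 0.11). Its ratio to LAT52 varied 1.06-fold in SC and 1.34-fold in SI. Beside the chromosome 12 pair, Solyc12g096760 was at 104 to 106 RPKM in SCP against 116 to 151 RPKM in SCUP (−0.40, SE 0.16, adjusted p = 0.167), so that the rise of the pair did not extend to it. Solyc12g096720 had a change of 1.21 in SC (SE 0.52, adjusted p = 0.184) and no reads in SI. Solyc12g096730 had at most 8 reads in any library, though its RPKM in every SCP library lay above that in every SCUP library. Of the 4 neighbours of the chromosome 2 pair, none was called in either species.

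For the most abundant member of each class, the 3 genes with the most similar expression were sought by Pearson's r of log2(RPKM + 0.5) over the 12 libraries, which share 4 groups, so r mainly follows the group levels and is given as a description. For Solyc12g096750 they were Solyc12g056600 (r = 0.985), named as a xanthoxin dehydrogenase by the study, Solyc05g009610 (r = 0.980) and Solyc05g011960 (r = 0.979). Solyc12g056600 had means of 17.9 RPKM in SCUP, 241 RPKM in SCP, 0.102 RPKM in SIUP and 0.704 RPKM in SIP. For Solyc03g111690 they were Solyc04g071360 (r = 0.913), Solyc07g064050 (r = 0.893) and Solyc12g038980 (r = 0.884). For Solyc03g123630 they were Solyc07g064900 (r = 0.928), Solyc12g013900 (r = 0.913) and Solyc02g091490 (r = 0.912).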

How the data were processed

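Poly(A) RNA of 12 style libraries was sequenced as paired reads. According to the study's methods and the submitters' processing notes, the authors trimmed reads with Trimmomatic (version 0.32), aligned them with TopHat2 to the tomato genome of the Sol Genomics site, counted them with HTSeq and deposited RPKM per gene. The genome build was not given in the sources used here, nor were the use of strand and the treatment of reads shared by copies. The deposited quality sheet holds counts of raw and kept read pairs (15510971 to 18986356 raw, 89.4 to 90.0% kept). A sheet with the authors' fold changes, p-values and marks was not used. One line of totals and 7 genes with error codes were left out.

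Tests were made with limma 3.58.1 (R 4.3.3, intensity trend) on log2(RPKM + 0.5), which understates changes of low genes, for genes that reached 1 RPKM in 3 or more libraries, per species (6 libraries) and, for the difference of the responses, over all 12. P-values were adjusted by Benjamini-Hochberg over all genes tested. Whole reads and gene lengths were recovered from the RPKM steps for 100% of the 27852 genes above 0, within 0.01 reads. They served for read numbers, the floor of 3 reads, exact 95% intervals of pooled ratios and voom. Depth intervals cover counting error only. The fits were tested on simulated data.

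Named genes were all 10 members, up to 3 rises and falls of the ontology list per comparison, LAT52, the 2 nearest numbers on each side of a cluster, and the 3 most alike genes of the top member per class; Solyc03g058910 was named after its values were seen. The members and lists were chosen with earlier results of these data known. The reference table given pairs none of the identifiers with descriptions, so the pectin list came from the study's ontology sheets, 1 of which is held only in part, and the marker list was LAT52 alone. Alternatives were pseudocounts of 0.1 and 1, no filter, a filter of 5 RPKM, upper-quartile and quantile scaling, no trend, an unequal-variance test, voom, a replicate block, 1 fit of all 12 libraries, and leaving out each library.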

Additional observations from a re-analysis of the deposited data

Results flagged for a closer look

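The response to self-pollination differed between the species for the polygalacturonase gene Solyc12g096740 by the test of the difference itself: SI minus SC was −3.36 on the log2 scale (SE 0.56, limma adjusted p = 0.0223). Expression rose from a mean of 17.0 to 141 RPKM in SC, in all 3 SCP libraries over all 3 SCUP libraries, and was 1.12 and 0.840 RPKM before and after pollination in SI. The SI levels rest on 8 to 19 reads a library. The call held in 14 of 22 alternatives, and voom and the unequal-variance test did not make it (adjusted p of 0.205 and 0.593).

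The pectinesterase gene Solyc09g075330 of the ontology list also differed between the species by that test, at −3.55 (SE 0.38, limma adjusted p = 0.00494). It was at 10.1 to 18.9 RPKM in SCP, at most 0.50 RPKM in SCUP and at most 0.494 RPKM in the SI libraries. It came from the study's list of genes changed in SC in these same libraries and passed the filter through SCP alone, so a difference was largely set by that choice. Voom and the unequal-variance test did not call it (adjusted p of 0.138 and 0.573).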

How the results depend on the processing

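Under the other settings, 398 of 423 values for single members kept their direction and their side of the threshold. The members called in SC numbered 2, and 0 by the unequal-variance test, with 1 to 2 when 1 library was left out (1 without SCUP replicate 3). In SI 0 were called, with 0 to 3 when 1 library was left out (3 without SIUP replicate 1). For the difference of the responses 1 was called, and 0 by the unequal-variance test and by voom, with 0 to 3 when 1 library was left out (3 without SCP replicate 1, 0 without SCUP replicate 3, SCP replicate 2, SIUP replicate 2 or any SIP replicate). The causes were not tested.

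Some signs turned. With 1 library left out, the SI change of Solyc10g080210 ran from −0.24 to 0.0408, the SC change of Solyc03g111690 from −1.06 to 0.0773, the difference for Solyc07g064180 from −1.23 to 0.0127, the SI change of Solyc03g123630 from −0.0849 to 0.0799, the difference for Solyc07g064160 from −1.09 to 1.22 and the SC change of LAT52 from −0.25 to 0.43. The SI change of Solyc03g123630 was 0.0101 with upper-quartile and 0.0174 with quantile scaling, and the difference for Solyc07g064190 was 0.45 with voom.

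With the replicate number as a block, 2 members were called in SC, 0 in SI and 1 for the difference, as without it. Deviations of same-numbered libraries correlated at −0.068 to 0.364 in SC and −0.211 to 0.165 in SI, so the numbers do not pair the samples, and the closest number was not always a library's own. Over all genes the block gave 1099 calls in SC against 1303, 126 in SI against 670 and 125 for the difference against 210. The unequal-variance test gave 1, 3 and 8, voom gave 28 for the difference, 1 fit of all libraries gave 3674 in SC, and the pseudocount of 0.1 and the filter of 5 RPKM gave 107 and 139 for the difference. Leaving out 1 library gave 256 to 1213 SC calls, 94 to 2311 SI calls and 32 to 389 calls of a difference. Upper-quartile scaling moved the share of higher calls in SC from 67.6 to 52.5%.

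Levels under 3 reads, as for Solyc10g080210 and Solyc07g064170 in SC, cannot show a change at this depth, and with 3 libraries a group a single library can decide a call. A filter of 5 RPKM left 4 members to test in SC, 4 in SI and 6 for the difference.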
